A study of Mus musculus with 24 samples.

Results

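Osteoclast precursors from STING-deficient mice were compared with wild-type (WT) precursors before any RANKL was added. The libraries were the 3 STING-deficient (KO) and 3 WT samples labelled day 0, which are 6 of the 24 RNA-seq libraries of the series. The comparison ran over the 9351 of 10721 listed genes whose mean reached 1 FPKM (fragments mapped to a gene, scaled by its length and by the size of the library) in at least 1 of the genotypes. Both groups were marrow cells of female mice aged 10 to 12 weeks, freed of red cells and grown for 72 hours in 40 ng/mL mCSF, the cytokine that expands macrophage precursors, and neither had received RANKL. They were the cells left over once the rest had been plated, and each library came from 1 mouse, numbered 480, 529 and 531 in WT and 481, 528 and 532 in KO. The other 18 libraries were the same mice after 2, 3 and 4 days in 10 ng/mL RANKL and 20 ng/mL mCSF. The strain and the mutant allele of the KO mice are not described in the sources used here, and both groups are whole cultures in which no single cell type was sorted.

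STING is an adaptor in the membrane of the endoplasmic reticulum. It binds the cyclic dinucleotide that the enzyme cGAS makes on meeting DNA in the cytosol, and then activates the kinase TBK1 and the transcription factor IRF3, which switch on type I interferon. Interferon in turn acts through its receptor and factors of the STAT and IRF families on a large set of interferon-stimulated genes, many of which resting macrophages keep at a low level, and interferon-beta is known to restrain the formation of osteoclasts.

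The summed FPKM of the 6 libraries ran from 573661 to 734974. Read depth is unknown, so the error of a value is judged by the spread between mice alone. Differences are KO minus WT on the log2(FPKM + 1) scale, which understates the change of genes with few FPKM. Their median over all genes tested was -0.01, and the median SD between mice was 0.2 in WT and 0.188 in KO on that scale. P-values are from limma over all genes, with Benjamini-Hochberg adjustment and a threshold of 0.05. The listed genes were deposited under the label sig.genes, so they may be a set preselected as significant. Here all genes means the tested part of that set, and adjustment ran within it. Shares of all genes need not hold for the whole transcriptome. The samples are labelled OCP, and RNA of several macrophage genes was present in every mouse. Lyz2, a lysozyme, measured 10752 to 21400 FPKM, Cd68 1422 to 2183 FPKM and the mCSF receptor gene Csf1r 249 to 564 FPKM. The RANK receptor gene Tnfrsf11a measured 9.91 to 12.7 FPKM. Another macrophage gene, Cd163, was scarce at 1.1 to 2.74 FPKM, and the neutrophil gene S100a8 measured 1662 to 4655 FPKM.

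The targeted gene separated the genotypes. Sting1, listed under its older symbol Tmem173 (chromosome 18, 35733678 to 35740554, RefSeq on GRCm38.p6), measured 28.7, 25.4 and 21.3 FPKM in WT mice 480, 529 and 531. In KO mice 481, 528 and 532 it measured 5.08, 4.57 and 4.89 FPKM. The groups did not overlap, and the KO mean was 19.3% of the WT mean, so the KO libraries still held Sting1 fragments. The gene fell by 2.15 on the log2 scale (SE 0.146, limma adjusted p = 0.00165). It passed without any 1 of the 6 mice, with adjusted p between 0.00292 and 0.0245.

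At the threshold 5 of the 9351 genes differed between the genotypes, which is 0.0535% of those tested: 4 were lower in KO (0.0428%) and 1 was higher (0.0107%). Beside Sting1 the genes that fell were Cxcl10, Rsad2 and Ifit3, all of which interferon induces. The gene that rose was Gm8615, a gene model described further on.

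Cxcl10, which encodes a chemokine that attracts activated T cells (chromosome 5, 92346638 to 92348889), measured 10.3, 8.71 and 11.7 FPKM in the WT mice. In the KO mice it measured 1.55, 2.43 and 2.31 FPKM. Every KO value was below every WT value, and the gene fell by 1.87 on the log2 scale (SE 0.172, limma adjusted p = 0.012). Rsad2, which encodes viperin, an enzyme that blocks viral replication (chromosome 12, 26442743 to 26456452), measured 13.4, 10.3 and 13.4 FPKM in the WT mice and 1.33, 2.57 and 2.98 FPKM in the KO mice. Its groups were as clearly apart, with a fall of 2.05 (SE 0.219, limma adjusted p = 0.0282). Ifit3, whose protein binds foreign RNA together with its relatives (chromosome 19, 34583119 to 34588982), measured 15.4, 7.33 and 9.63 FPKM in the WT mice and 1.38, 1.67 and 1.75 FPKM in the KO mice. Mouse 480 held the most Ifit3 among the WT mice, and the KO mice lay close together. The gene fell by 2.13 (SE 0.237, limma adjusted p = 0.0311). In bulk RNA, fewer cells that express a gene and less RNA of it per cell cannot be told apart.

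These 3 calls held without WT mouse 529 but were lost without some of the others, with 3 of 6 such fits calling Cxcl10, 2 of 6 Rsad2 and 2 of 6 Ifit3. The Cxcl10 call was lost without WT mouse 480, WT mouse 531 or KO mouse 532 (limma adjusted p of 0.0501, 0.0541 and 0.0688). Rsad2 was lost without WT mouse 480, WT mouse 531, KO mouse 528 or KO mouse 532 (0.108, 0.0914, 0.0841 and 0.0688). Ifit3 was lost without WT mouse 531 or KO mouse 481, 528 or 532 (0.0914, 0.168, 0.134 and 0.196), while the 3 differences themselves stayed between -2.35 and -1.73. Cxcl10 also failed when all 24 libraries entered the fit with a weight for each day (limma adjusted p = 1). That fit made 9 calls, 0.0962% of the genes: Gm8615 was higher (0.0107%), and Sting1, Ifit3, Rsad2, I830012O16Rik, Mx1, Mx2, Oasl1 and Usp18 were lower (0.0856%). With equal weights it made 39 calls (0.417%), of which 36 were lower (0.385%) and 3 higher (0.0321%). Cxcl10 was among the lower ones there (limma adjusted p = 0.0033), in a fit that gives day 0 no weight of its own.

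**Figure D1:**
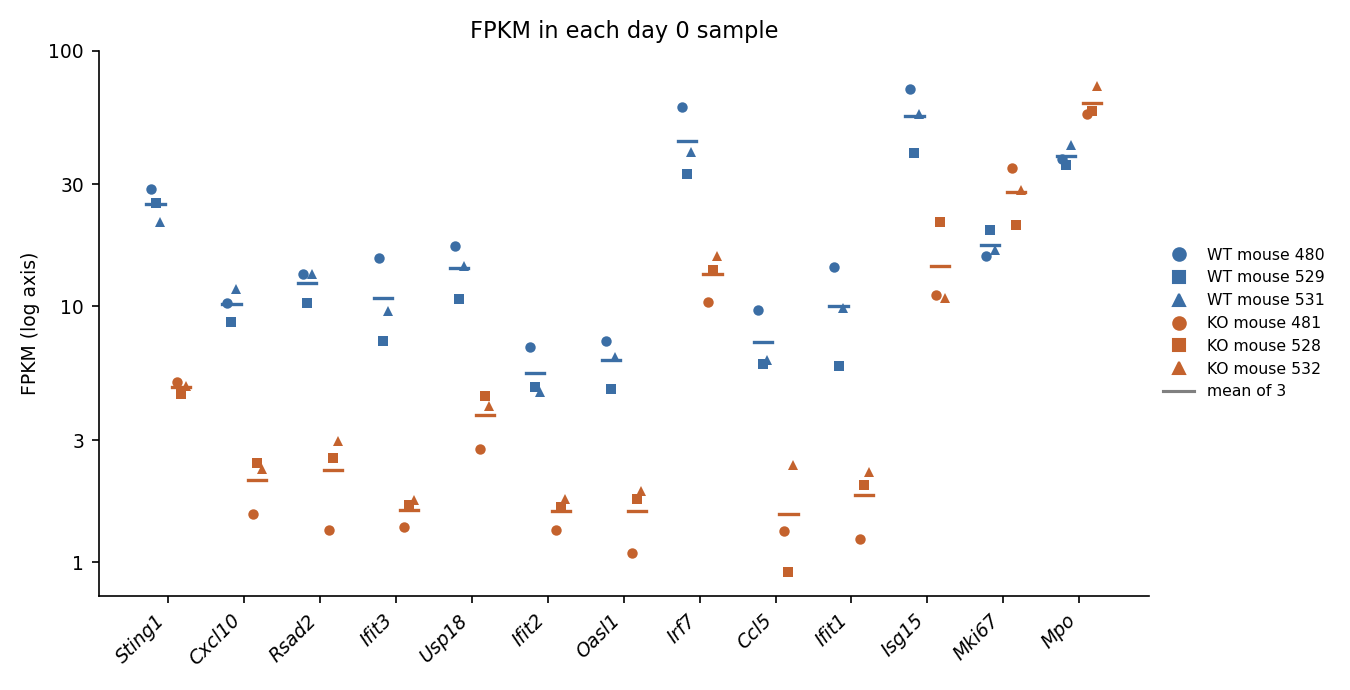
FPKM on a log axis in each of the 6 day 0 samples for 13 genes; symbols mark mice, blue WT and orange KO, and each bar is the mean of 3. For Sting1 and the 10 interferon-induced genes beside it all 3 KO samples lie below all 3 WT samples, while for Mki67 and Mpo they lie above.

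The promoters of several of these genes carry the letters to which interferon-activated factors bind. The interferon-stimulated response element was searched as GAAANNGAAA on both strands of a window from 250 bases before to 50 bases after each gene's start. The stretches below, from RefSeq on GRCm38.p6 and on the gene's own strand, belong to 3 genes that fell at the threshold, Ifit3, Rsad2 and Cxcl10, and to Ifit1 and Isg15, which are described next. They are shown so that the number and spacing of the copies can be compared. Capitals mark the matches, and TTTCNNTTTC is the same element on the other strand.
Ifit3: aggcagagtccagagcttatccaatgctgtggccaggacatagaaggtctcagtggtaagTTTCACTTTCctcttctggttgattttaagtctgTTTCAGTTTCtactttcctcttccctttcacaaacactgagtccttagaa
Ifit1: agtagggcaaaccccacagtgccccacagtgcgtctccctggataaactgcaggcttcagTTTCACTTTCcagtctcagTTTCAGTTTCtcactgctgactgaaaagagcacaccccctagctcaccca
Isg15: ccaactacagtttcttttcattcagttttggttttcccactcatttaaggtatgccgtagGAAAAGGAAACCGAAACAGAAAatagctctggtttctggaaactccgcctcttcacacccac
Rsad2: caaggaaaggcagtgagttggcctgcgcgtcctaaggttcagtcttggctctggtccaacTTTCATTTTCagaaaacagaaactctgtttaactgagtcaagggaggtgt
Cxcl10: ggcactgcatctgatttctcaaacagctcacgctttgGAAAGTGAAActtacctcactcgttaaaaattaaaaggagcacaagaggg
The Ifit3 stretch is chr19:34583313-34583456 on the plus strand, with matches that begin 156 and 122 bases before the start site of its RefSeq promoter entry at 34583529. That site lies 410 bases inside the annotated span of Ifit3, whose outer end is 34583119, so the stretch is upstream of one start and within the span of the gene. For Ifit1, Isg15, Rsad2 and Cxcl10 the start site is the outer end of the gene's span. The Ifit1 stretch is chr19:34640725-34640853 on the plus strand, with matches at 104 and 85 bases. The Isg15 stretch is chr4:156200835-156200956 on the minus strand, and its 3 matches at 78, 72 and 66 bases overlap each other. Those of Rsad2 (chr12:26456523-26456632) and Cxcl10 (chr5:92349053-92349139), both on the minus strand, hold 1 match each, at 120 and 213 bases. The stretch of 144 bases at I830012O16Rik, a close copy of Ifit3, has the same letters as that of Ifit3.

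Of the 71 tested genes in the 5 interferon-stimulated lists described below, 57 had a promoter entry, and 28 of these (49.1%) held at least 1 match. Over all genes tested 302 of 7542 did (4%). With bases before the start alone the shares were 43.9% and 3.49%, and with 1 mismatch allowed 87.7% and 32.5%. Ifit2, Oasl1, Irf7, Cmpk2 and Xaf1 had no exact match, which says only that these letters are not in the window. A match is a description of the letters, and binding was not measured.

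Beyond the genes past the threshold, the interferon-stimulated lists lay low as groups. Of the 71 tested genes in 5 lists (the Ifit family, the Oas family, the Isg15 system, antiviral effectors and interferon-inducible GTPases) 68 had a negative difference, against 53.2% of all genes tested, and their median was -0.68 against -0.01. For 52 of the 71 all 3 KO values lay below all 3 WT values, a pattern held by 3.83% of all genes, and for 0 of the 71 they lay above, against 2.13%. Before adjustment 50 of the 71 were lower with p under 0.05, against 1.4% of all genes, and 0 were higher, against 0.364%. Of the 71, 2, Ifit3 and Rsad2, passed after adjustment, against 0.0428% of all genes. These lists were assembled with results of the same libraries known, so their direction is a description.

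**Figure D2:**
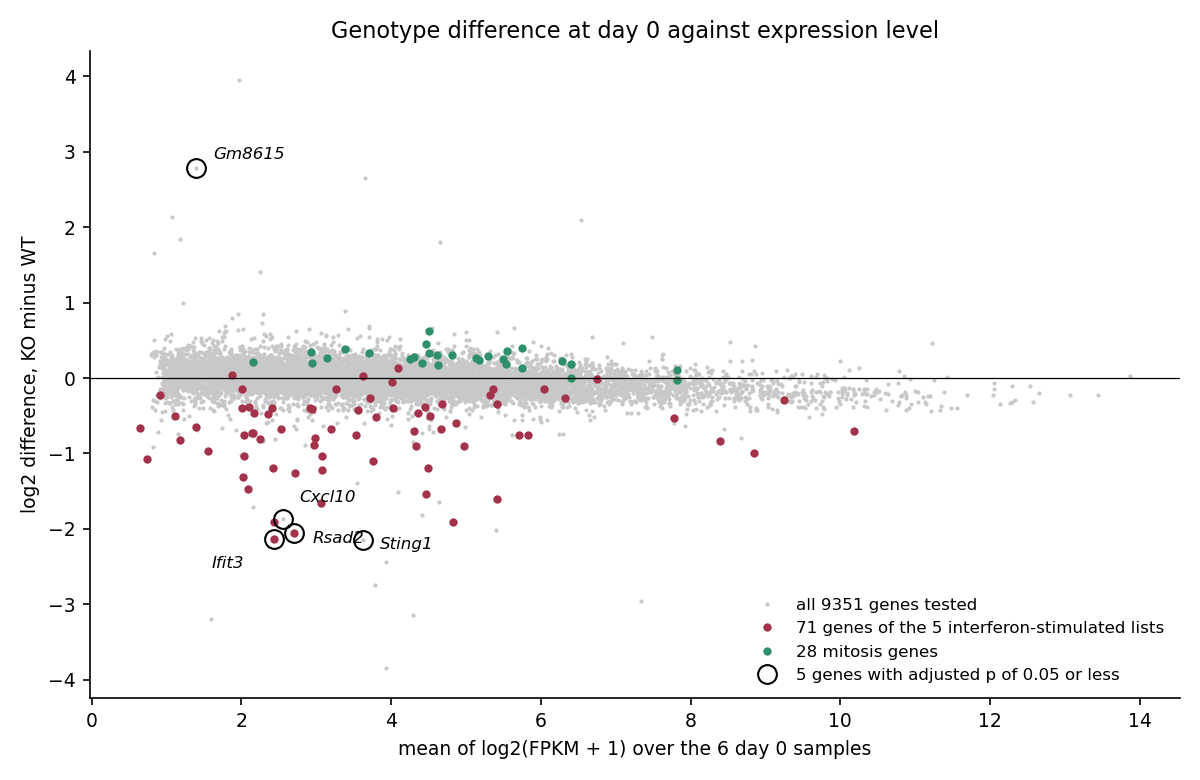
Log2 difference between KO and WT (y axis) against the mean of log2(FPKM + 1) over the 6 day 0 samples (x axis) for each of the 9351 genes tested; the 71 genes of the interferon-stimulated lists are dark red, the 28 mitosis genes green, and circles mark the 5 genes past the threshold. Most dark red points lie below 0 and most green points slightly above it, and the far grey points include genes listed at 0 in some libraries.

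The Ifit genes, whose proteins bind viral RNA and block its translation, stood lowest, with a median of -1.31. In this list 5 of 5 members were negative without overlap (100%, against 3.83% of all genes). The median was -2.34 with a pseudocount of 0.1 and -1.91 over the members that reached 5 FPKM. Ifit1 measured 14.3, 5.87 and 9.9 FPKM in the WT mice and 1.23, 2.0 and 2.26 FPKM in the KO mice, a difference of -1.91 (limma adjusted p = 0.127). It passed without WT mouse 529 (adjusted p = 0.0281). Ifit2 measured 6.96, 4.84 and 4.61 FPKM in the WT mice and 1.34, 1.64 and 1.77 FPKM in the KO mice, a difference of -1.31 (limma adjusted p = 0.0636). The lowest WT value was more than any KO value in both genes. I830012O16Rik measured 2.4, 1.0 and 1.09 FPKM in the WT mice and 0.0958, 0.213 and 0.16 FPKM in the KO mice. Reads of Ifit3 and of this copy could be shared between them in the counting, so the value of each alone is uncertain.

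Oas enzymes make the short adenylate chains that set off the degradation of RNA. In this list 8 of 9 members were negative, all 8 without overlap (88.9%, against 3.83% of all genes), and the median was -0.90. Oasl2 measured 50.3, 28.2 and 34.6 FPKM in the WT mice and 6.83, 14.6 and 16.9 FPKM in the KO mice. Oasl1, an inactive relative that restrains Irf7 translation, measured 7.36, 4.77 and 6.37 FPKM in the WT mice and 1.08, 1.76 and 1.89 FPKM in the KO mice, a difference of -1.47 (limma adjusted p = 0.0636 on the 6 libraries and 0.0134 with 24 libraries weighted by day). Oas3 measured 15.8, 9.66 and 11.0 FPKM in the WT mice and 3.06, 5.26 and 5.69 FPKM in the KO mice. In each of them KO mouse 481 held the least and WT mouse 480 the most. The Oas genes resemble each other, so their reads could also be split among them.

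Isg15 is a small ubiquitin-like protein that is joined to other proteins. The 6 genes for it and for the enzymes that attach and remove it were all negative, with a median of -0.58. Isg15 measured 70.9, 39.8 and 56.5 FPKM in the WT mice and 11.1, 21.4 and 10.8 FPKM in the KO mice, a difference of -1.91 (limma adjusted p = 0.129). Usp18, the protease that removes Isg15 and dampens the interferon receptor, measured 17.2, 10.7 and 14.4 FPKM in the WT mice and 2.77, 4.48 and 4.09 FPKM in the KO mice. Its difference of -1.66 had a limma adjusted p of 0.0636 on the 6 libraries, of 0.0388 without WT mouse 529 and of 0.0151 with 24 libraries weighted by day. Ube2l6, the conjugating enzyme, measured 82.2, 64.2 and 73.0 FPKM in the WT mice and 39.6, 50.5 and 39.2 FPKM in the KO mice. The ligase genes differed less: Herc6 had a difference of -0.38 and Trim25 of -0.22.

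The 45 tested antiviral effectors had a median of -0.52, which was -0.30 without mice 480 and 481, and 43 were negative. Rtp4 measured 81.4, 59.2 and 83.0 FPKM in the WT mice and 10.3, 36.6 and 33.7 FPKM in the KO mice. Cmpk2, a nucleotide kinase next to Rsad2, measured 10.7, 9.55 and 7.64 FPKM in the WT mice and 1.97, 3.77 and 4.4 FPKM in the KO mice. Xaf1, which promotes cell death, measured 12.9, 9.42 and 11.1 FPKM in the WT mice and 3.64, 6.16 and 5.21 FPKM in the KO mice. None of the 3 passed, with limma adjusted p of 0.997, 0.402 and 0.402. The Mx GTPases, which trap viral capsids, were scarce in both genotypes: Mx1 measured 4.07, 2.55 and 2.83 FPKM in the WT mice and 0.855, 0.98 and 1.48 FPKM in the KO mice. Abundant members were also lower in their KO means, as Ifitm3, which bars viruses from fusing with endosomes, measured 2022, 1063 and 1497 FPKM in the WT mice and 896, 1017 and 821 FPKM in the KO mice. At the other end of the list Pml measured 11.6, 11.7 and 10.2 FPKM in the WT mice and 10.1, 10.0 and 14.8 FPKM in the KO mice, a difference of 0.03.

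Interferon-inducible GTPases coat and break up the vacuoles of intracellular microbes. All 6 tested members were negative without overlap (100%, against 3.83% of all genes). Their differences ran from -0.9 to -0.48, with a median of -0.72, which was -0.41 without mice 480 and 481. Igtp measured 16.3, 12.6 and 13.3 FPKM in the WT mice and 6.41, 8.93 and 8.7 FPKM in the KO mice. Ifi47 measured 33.1, 22.2 and 25.4 FPKM in the WT mice and 9.79, 15.9 and 16.7 FPKM in the KO mice. In none of the 6 did a KO mouse reach the lowest WT mouse, and none passed the adjustment.

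Genes that act upstream of these had medians nearer to 0. The list of cytosolic DNA sensing genes (20 tested) had a median of -0.14, with Sting1 as its 1 call. The sensor Cgas, listed as E330016A19Rik, measured 4.66, 4.17 and 5.44 FPKM in the WT mice and 4.77, 4.75 and 4.61 FPKM in the KO mice, and the kinase gene Tbk1 23.5, 23.4 and 20.3 FPKM against 21.9, 21.7 and 25.2 FPKM. Irf3 measured 38.8, 32.7 and 35.8 FPKM in the WT mice and 36.0, 33.0 and 28.7 FPKM in the KO mice. In all 3 the groups overlapped. Other members of the list are interferon-induced: Zbp1, a sensor of left-handed nucleic acid, measured 39.9, 19.9 and 26.8 FPKM in the WT mice and 5.61, 12.7 and 10.3 FPKM in the KO mice, and the DNA exonuclease gene Trex1 138, 71.1 and 92.2 FPKM against 58.9, 58.1 and 55.9 FPKM. Neither passed (limma adjusted p = 0.594 and 0.997).

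Among 14 IRF and STAT factors the median was -0.06, and Irf7, the factor that amplifies interferon production, stood apart. It measured 60.4, 33.0 and 40.3 FPKM in the WT mice and 10.4, 13.9 and 15.8 FPKM in the KO mice, a difference of -1.64 (limma adjusted p = 0.112). Irf9, a part of the factor that interferon activates, was 33.6, 24.7 and 24.5 FPKM in the WT mice and 17.5, 19.4 and 24.4 FPKM in the KO mice, almost touching. The interferon receptor genes overlapped: Ifnar1 measured 20.9, 20.1 and 17.2 FPKM in the WT mice and 20.6, 19.0 and 24.6 FPKM in the KO mice. Ifnar2 measured 134, 116 and 120 FPKM in the WT mice and 110, 113 and 126 FPKM in the KO mice. The list of receptors, JAKs and SOCS genes had a median of -0.08, which was 0.01 without WT mouse 480.

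RNA sensing genes (10 tested) had a median of -0.23, in which the RIG-I family stood lowest. Dhx58, its regulatory member, measured 26.6, 24 and 25.5 FPKM in the WT mice and 11.2, 16.6 and 13.6 FPKM in the KO mice (limma adjusted p = 0.402), and Ddx58, which encodes RIG-I itself, 13.6, 9.14 and 9.44 FPKM against 5.04, 5.6 and 8.65 FPKM. Neither pair of groups overlapped. Toll-like receptor genes had a median of -0.02 and 0 of 17 members without overlap, against 3.83% of all genes lower and 2.13% higher. NF-kB and RANK signalling genes also had a median of -0.02. Both medians changed sign or reached 0.00 under 6 of the alternatives, where they lay between 0.00 and 0.11.

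Inflammatory cytokines and chemokines (17 tested) had a median of -0.20, with 12 members negative and 6 lower without overlap, against 3.83% of all genes. The 6 were Cxcl10, Ccl5, Cxcl1, Il10, Il18 and Ccl9, the last 2 named after seeing their values, and Cxcl10 and Ccl5 had the lowest differences. Ccl5, a T cell chemokine, measured 9.67, 5.93 and 6.19 FPKM in the WT mice and 1.33, 0.916 and 2.4 FPKM in the KO mice, a difference of -1.71 (limma adjusted p = 0.112). Il10, an anti-inflammatory cytokine gene, measured 9.32, 7.39 and 7.63 FPKM in the WT mice and 5.98, 6.17 and 5.74 FPKM in the KO mice, a difference of -0.38 (limma adjusted p = 0.997). Cxcl1, a neutrophil chemokine gene, measured 5.57, 4.7 and 3.8 FPKM in the WT mice and 3.14, 3.79 and 2.5 FPKM in the KO mice, a difference of -0.46 (limma adjusted p = 0.997). In both the highest KO mouse lay below the lowest WT mouse. Some chemokines with far higher levels overlapped between the genotypes, such as Ccl3 at 427 to 520 FPKM in WT mice and 402 to 447 FPKM in KO mice. Ccl2, which recruits monocytes, measured 156, 570 and 716 FPKM in the WT mice and 438, 665 and 537 FPKM in the KO mice, so WT mouse 480 stood apart from the other 5.

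MHC class I and immunoproteasome genes, which cut and present peptides to T cells, were negative in 17 of 20 members with a median of -0.38. H2-K1 measured 819, 556 and 624 FPKM in the WT mice and 449, 542 and 486 FPKM in the KO mice, and Tap1, a peptide transporter gene, 30.4, 27.6 and 36.5 FPKM against 17.3, 26.2 and 25.9 FPKM. Neither passed (limma adjusted p = 0.997 for both), and 5 of the 20 (25%) were lower without overlap, against 3.83% of all genes. The list's mean log2 level was 5.93, 5.47 and 5.68 in WT and 5.30, 5.48 and 5.34 in KO, so KO mouse 528 lay level with WT mouse 529. MHC class II genes had a median of 0.11 and 0 of 11 members without overlap, against 3.83% of all genes lower and 2.13% higher. That median was -0.23 without WT mouse 529, -0.08 without WT mouse 531 and -0.19 without KO mouse 481. Fcgr1, the high-affinity IgG receptor gene, measured 81.5, 68.1 and 75.8 FPKM in the WT mice and 49.0, 55.3 and 51.7 FPKM in the KO mice, without overlap and without passing (limma adjusted p = 0.997).

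**Figure D3:**
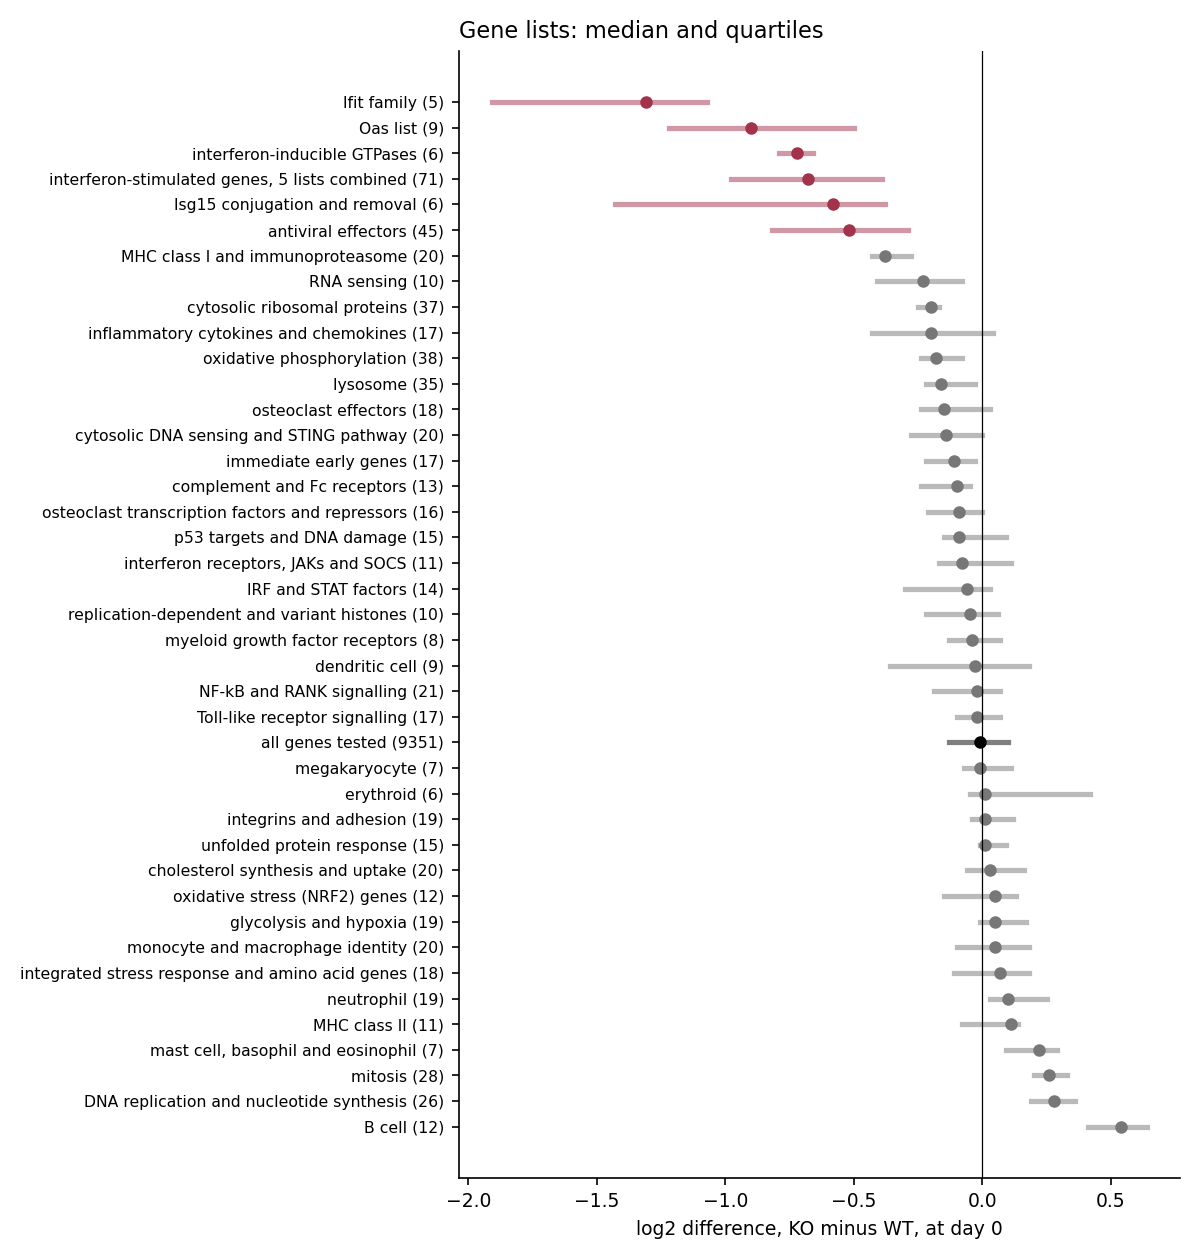
Median (dot) and quartiles (bar) of the log2 difference between KO and WT over the tested members of each gene list with 5 or more of them, the number of members in brackets; interferon-stimulated lists are dark red and all genes tested black. The Ifit list has the lowest median (-1.31) and the B cell list the highest (0.54), against -0.01 for all genes.

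The mice of a genotype were not alike in these genes. The mean log2 level of the 71 genes was 4.36, 3.90 and 4.05 in WT mice 480, 529 and 531 and 3.15, 3.48 and 3.51 in KO mice 481, 528 and 532. WT mouse 480 was the highest of its genotype in 54 of the 71 genes, and KO mouse 481 the lowest of its own in 44. Without both, the median of the 71 genes was -0.40 in place of -0.68. These 2 mice also held the most RNA of B cell markers and of several other cell type lists. Over 12 tested B cell genes the mean log2 level was 3.31, 1.87 and 2.04 in WT and 3.65, 2.48 and 2.57 in KO. For the neutrophil list it was 6.89, 5.91 and 6.29 in WT and 6.75, 6.38 and 6.41 in KO. The same 2 mice were highest in the T and NK, dendritic, stromal and endothelial, and mast cell, basophil and eosinophil lists. They were not both highest in the monocyte and macrophage, megakaryocyte and erythroid lists. Cd79a, a part of the B cell receptor, measured 24.3 FPKM in mouse 480 and 34.1 FPKM in mouse 481, against 4.66 and 6.53 FPKM in the other WT mice and 10.6 and 10.2 FPKM in the other KO mice.

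The summed FPKM of the 13 B cell genes with values, of which 12 were tested, ran from 100 to 224 in WT and from 123 to 237 in KO. Of the 12, 11 had a positive difference, with a median of 0.54. Among them 0 were without overlap, against 3.83% of all genes lower and 2.13% higher. That median was 0.13 without KO mouse 481, 0.22 without WT mouse 529 and 0.99 without WT mouse 480. Mouse 480 had the highest mean level of the interferon-stimulated genes and mouse 481 the lowest, and their 13 B cell genes summed to 224 and 237 FPKM. The part of B cells in the results was not tested, and 1 mouse of each genotype cannot decide it. Cd3e and Gzmb are among 15 genes of the T and NK cell list that were not analysed here. Its 3 members with values, of which 2 were tested, summed to 2.23 to 7.95 FPKM in WT mice and 2.9 to 5.53 FPKM in KO mice. Monocyte and macrophage genes had a median of 0.05 over 20 members, which was -0.08 without WT mouse 531 and -0.04 without KO mouse 532.

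**Figure D4:**
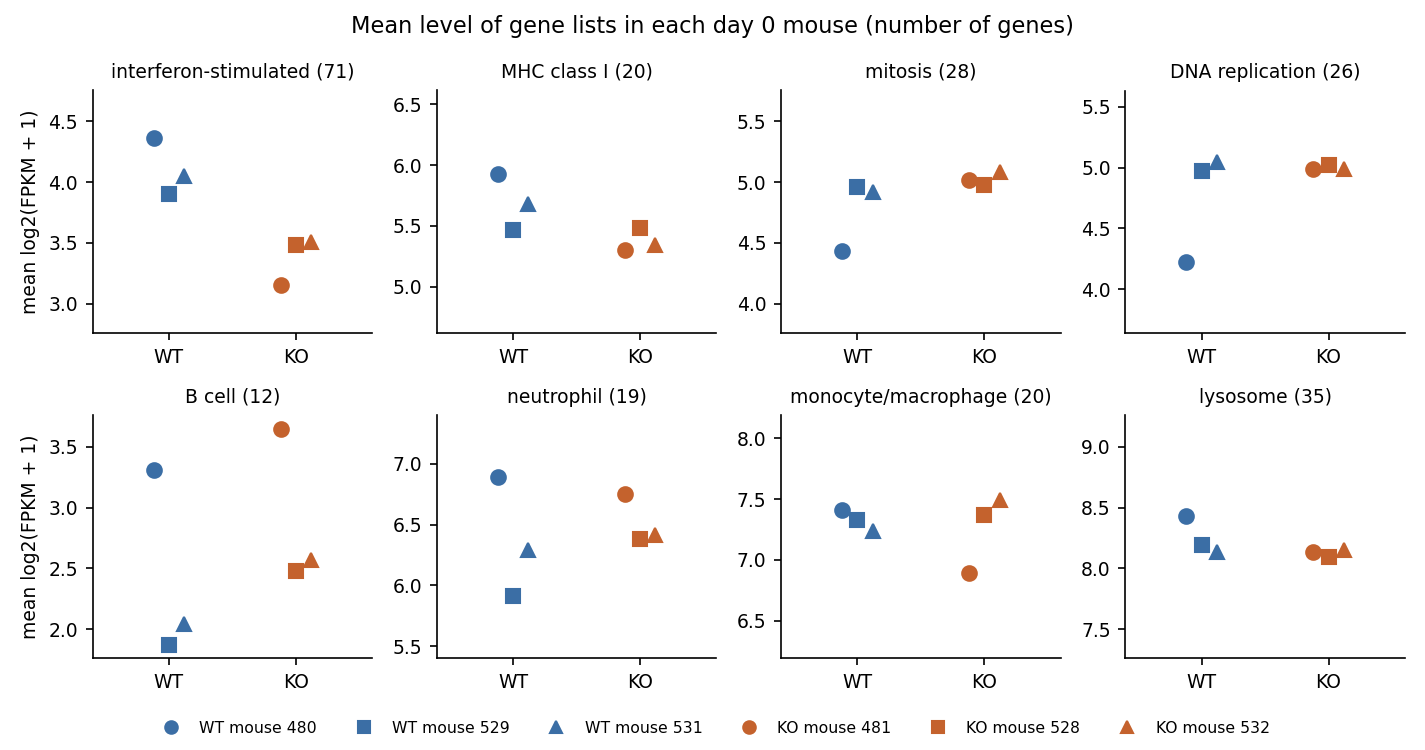
Mean log2(FPKM + 1) of 8 gene lists in each day 0 mouse, with the number of genes in brackets; blue symbols are WT and orange KO, and every panel spans the same range of 2 log2 units around its own centre. The interferon-stimulated panel separates the genotypes, while WT mouse 480 lies alone in the mitosis and DNA replication panels. Mice 480 and 481 lie high in the B cell and neutrophil panels. The monocyte/macrophage panel includes Cd36, listed at 0 in KO mouse 481 alone, which lowers the point of that mouse.

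Outside the interferon-related genes, those of dividing cells had mostly positive differences. Of 28 mitosis genes 27 had a positive difference, with a median of 0.26, and of 26 genes for DNA replication and nucleotide synthesis 25, with a median of 0.28. In all genes 46.8% were positive. None passed the threshold, and 5 of the mitosis genes (17.9%) and 2 of the replication genes (7.69%) were higher without overlap, against 2.13% of all genes. Mki67, the proliferation marker Ki-67, measured 15.8, 19.9 and 16.7 FPKM in the WT mice and 34.7, 20.7 and 28.4 FPKM in the KO mice, a difference of 0.63 (limma adjusted p = 0.997). Top2a, the topoisomerase of dividing cells, measured 37.3, 54.7 and 47.9 FPKM in the WT mice and 64.4, 56.7 and 62.0 FPKM in the KO mice. Mcm5, a subunit of the replicative helicase, measured 33.1, 61.6 and 59.6 FPKM in the WT mice and 66.8, 60.1 and 65.5 FPKM in the KO mice. WT mouse 480 was the low sample in Top2a and Mcm5. Mean log2 levels of the mitosis list were 4.43, 4.96 and 4.92 in WT and 5.02, 4.98 and 5.08 in KO. Without mouse 480 the medians were 0.09 for mitosis and 0.00 for DNA replication.

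Of 19 neutrophil genes 2 (10.5%) were higher in KO without overlap, against 2.13% of all genes. The 2 were Mpo and Ctsg, and neither passed. Mpo, the peroxidase of primary granules, measured 37.8, 35.7 and 42.7 FPKM in the WT mice and 56.5, 58.4 and 72.7 FPKM in the KO mice, a difference of 0.67 (SE 0.148, limma adjusted p = 0.744). Ctsg, cathepsin G, measured 17.1, 24.2 and 27.2 FPKM in the WT mice and 28.2, 38.3 and 36.8 FPKM in the KO mice (limma adjusted p = 0.997). Both are made by granulocyte and monocyte progenitors. Genes of mature neutrophils overlapped between the genotypes: S100a8, a calcium-binding protein of these cells, measured 4655, 1662 and 2621 FPKM in the WT mice and 3803, 2602 and 2153 FPKM in the KO mice. The 19 neutrophil genes had a median of 0.10 and summed to 6246 to 16775 FPKM in WT mice and 7961 to 13571 FPKM in KO mice. Without KO mouse 481 that median was -0.05, without WT mouse 529 it was -0.19, and without WT mouse 480 it was 0.40.

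Genes higher in KO with no overlap and an unadjusted p under 0.05 numbered 26, which is 0.278% of the genes, and genes lower by the same rule 111, or 1.19%. Of the 111 lower genes 48 (43.2%) belonged to the interferon-stimulated lists, and of the 26 higher ones 0. These lists hold 71 of the 9351 genes tested, so 0 among 26 says little. Vcam1, an adhesion molecule gene, measured 3.23, 3.25 and 3.63 FPKM in the WT mice and 3.97, 6.64 and 5.41 FPKM in the KO mice. E2f8, a cell cycle repressor gene, measured 4.41, 7.82 and 6.94 FPKM in the WT mice and 8.95, 8.18 and 12.4 FPKM in the KO mice. Hba-a2, a haemoglobin gene, measured 0.161, 0.205 and 0.246 FPKM in the WT mice and 3.6, 12.7 and 0.274 FPKM in the KO mice, so 2 of 3 KO mice carried it. The closely related Hba-a1 overlapped, at 12.9, 4.55 and 19.5 FPKM in the WT mice and 13.1, 3.94 and 12.1 FPKM in the KO mice, and reads of these paralogs could be split between them.

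Genes of the osteoclast programme, which RANKL switches on later, mostly overlapped between the genotypes. The 18 tested effectors of bone resorption had a median of -0.15, with 0 members lower without overlap (3.83% of all genes) and 1 higher (2.13% of all genes). That one was Sh3pxd2a, a scaffold gene of podosomes, at 1.42, 1.94 and 1.81 FPKM in the WT mice and 2.18, 1.95 and 2.5 FPKM in the KO mice (limma adjusted p = 0.997). Ctsk, the collagen-cutting protease of osteoclasts, measured 45.8, 22 and 24.5 FPKM in the WT mice and 49.3, 9.37 and 11.0 FPKM in the KO mice. Nfatc1, the factor that drives osteoclast formation, measured 14.7, 12.8 and 11.6 FPKM in the WT mice and 15.3, 11.9 and 16.7 FPKM in the KO mice. The receptor gene Tnfrsf11a measured 11.5, 9.91 and 10.0 FPKM in the WT mice and 12.7, 11.0 and 10.6 FPKM in the KO mice. In Ctsk, Nfatc1 and Tnfrsf11a the groups overlapped. A p that misses the threshold does not show that these levels are equal.

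Lists of housekeeping functions had small negative medians. Of 37 genes for cytosolic ribosomal proteins 36 were negative with a median of -0.20, and of 38 genes for oxidative phosphorylation 36 with a median of -0.18. The 2 lists had 1 (2.7%) and 0 (0%) members lower without overlap, against 3.83% of all genes. Their means were lowest in KO mouse 532, at 9.35 against 9.66 to 10.02 in WT for the ribosomal list. Without that mouse the medians were -0.07 and -0.06, and without WT mouse 531 they were -0.13 and -0.08. Of 35 lysosome genes 27 (77.1%) were negative, against 53.2% of all genes, with a median of -0.16. Of the 35, 8 (22.9%) were lower without overlap, against 3.83% of all genes. Npc2, a lysosomal cholesterol carrier gene, measured 633, 470 and 523 FPKM in the WT mice and 412, 449 and 366 FPKM in the KO mice (limma adjusted p = 0.997). The lysosome median was -0.07 without WT mouse 480.

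Gm8615, a gene model on chromosome 5 (149154128 to 149156192), was listed at 0 in the 3 WT mice and at 6.1, 7.05 and 4.84 FPKM in KO mice 481, 528 and 532. It rose in the limma fit (adjusted p = 0.000602) and passed without any 1 mouse, with adjusted p between 0.00193 and 0.00454; no fold is given against a group at 0. Over 753 bases its transcript of 771 bases has 99.07% identity to 1 other gene of the annotation, Gnpda1, which lies on chromosome 18 (38327537 to 38338993), the chromosome of Sting1. Gnpda1, which encodes an enzyme of hexosamine breakdown, measured 44.0, 44.5 and 34.4 FPKM in the WT mice and 36.7, 30.3 and 52.5 FPKM in the KO mice, so its groups overlapped. Which of the 2 copies gave the Gm8615 fragments was not tested.

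Genes around Sting1 on chromosome 18 were examined as well. Of 69 tested genes within 10 Mb of Sting1, 3 were higher and 3 lower in KO without overlap (8.7%), against 4 and 4 of the other 149 genes of the chromosome (5.37%). Over all genes tested 2.13% were higher and 3.83% lower without overlap. The median difference was -0.03 within 10 Mb of Sting1 and 0.03 in the other genes of the chromosome. Cdc23, a subunit of the anaphase-promoting complex that lies 1.11 Mb from Sting1, measured 4.05, 7.08 and 6.63 FPKM in the WT mice and 7.54, 9.02 and 11.7 FPKM in the KO mice. Its difference of 0.60 did not pass (limma adjusted p = 0.997).

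The same mice allowed the day 0 difference to be set against that after RANKL. The day 0 cells were those left over from plating, and the mix of cells also changed. The mean log2 level of the 19 neutrophil genes was 5.91 to 6.89 at day 0 and 1.92 to 2.23 at day 2. That of the 12 B cell genes was 1.87 to 3.65 and then 0.50 to 0.54. Effects of RANKL, of plating and of the mix of cells cannot be told apart here. The median of the 71 interferon-stimulated genes was -0.68 at day 0 and -0.08, -0.13 and -0.20 at days 2, 3 and 4, while that of all genes stayed between -0.01 and 0.01. Their mean log2 level was 3.15 to 4.36 at day 0 and 2.03 to 2.37 at day 2, so they were lower at day 2 than at day 0 in each mouse of both genotypes. At day 2 Rsad2 measured 0.27 ± 0.155 FPKM in the WT mice and 0.122 ± 0.0564 FPKM in the KO mice (SD, n = 3). Isg15 then measured 1.88 ± 0.633 FPKM in the WT mice and 1.24 ± 0.0921 FPKM in the KO mice (SD, n = 3). At such levels the added 1 FPKM takes up much of any difference.

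Taking each mouse's day 0 value less its own mean over days 2 to 4, 0 of 9351 genes differed between the genotypes in limma (0%), and 472 had an unadjusted p under 0.05 (5.05%). The lowest adjusted p were those of Gm8615 and Sting1 (0.128 each), Rsad2 (0.269) and Ifit3 (0.478). For Sting1 the contrast was -1.67 (SE 0.198), for Rsad2 -1.78 (SE 0.247) and for Ifit3 -1.88 (SE 0.294). With 24 libraries weighted by day, 6 genes passed (0.0642%): Gm8615, Sting1, Ifit3, Mx1, I830012O16Rik and Rsad2. With the mouse as a replicate block in that fit 7 passed (0.0749%). Whether the genotype difference of single genes is larger before RANKL therefore depended on the fit.

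**Figure D5:**
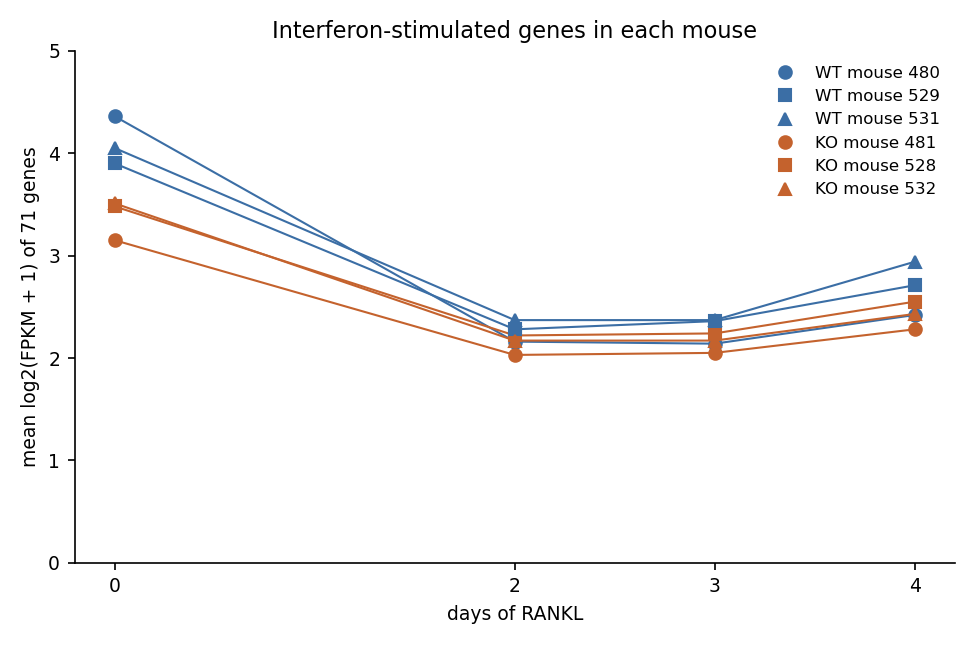
Mean log2(FPKM + 1) of the 71 interferon-stimulated genes (y axis) against days of RANKL (x axis) for each mouse; lines join the samples of 1 mouse, blue WT and orange KO. At day 0 the WT mice (3.90 to 4.36) lie above the KO mice (3.15 to 3.51), and at day 2 all 6 lie between 2.03 and 2.37.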

How the data were processed

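Per the submitters' processing notes, the authors used HISAT2 2.0.5, Cufflinks 2.2.1 and Cuffdiff with mm10, and deposited FPKM per gene and library in 1 table of 10721 genes. The selection of those genes, trimming, strand and the treatment of reads that map more than once: not given in the sources used here. All 24 value columns were matched to a sample by genotype, day and mouse, and 0 were unused. Because the label sig.genes may mark a selection made on these same libraries, background shares describe the deposited genes only. Whether such a selection was made was not tested.

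From the deposited FPKM, log2(FPKM + 1) was tested with limma 3.58.1 in R 4.3.3, with a mean-variance trend, on the 6 day 0 libraries, two-sided, with Benjamini-Hochberg adjustment. The 6 libraries were fitted alone because day 0 varied more between mice than later days, and fits of all 24 libraries were alternatives. P-values measure the spread between mice. The second test used each mouse's day 0 value less its mean over days 2 to 4. The fits were tested on simulated data. No mouse is in both genotypes, so the mouse numbers pair samples only across days. Read depth is unknown, and an FPKM of exactly 0 can be a failed estimate: 18 tested genes were listed at 0 in some and at 10 FPKM or more in other day 0 libraries.

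The 41 gene lists, the members and the rule for named genes were chosen with earlier results of these data known. The rule named Sting1, genes past the threshold on the 6 libraries or with 24 libraries weighted by day, the 10 largest rises and 10 largest falls without overlap at an unadjusted p under 0.05, and in each list up to 4 genes of smallest p and, for cell types, 3 of highest level. Other genes named, among them Csf1r, Tnfrsf11a, Trim25, Rtp4, Ifitm3, Pml, Cgas, Tbk1, Irf3, Ifnar1, Ifnar2, Ccl2, Ccl3, H2-K1, Tap1, Mcm5, Nfatc1, Il18, Ccl9 and Gnpda1, were picked with their values known. Results of some genes are not reported here. List symbols were matched through RefSeq synonyms (17 by an older symbol), and 99.3% of the tested genes carry a current RefSeq symbol. Positions and promoters are RefSeq on GRCm38.p6, and the Gm8615 transcript was compared with GENCODE vM21 transcripts by BLAST 2.17.0.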

Additional observations from a re-analysis of the deposited data

How the results depend on the processing

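No gene or count past the threshold changed direction under any alternative. Of 42 list medians 24 changed sign, or moved to or from 0.00 at 2 decimals, in some setting. The neutrophil median changed sign, and that of DNA replication reached 0.00. The number of genes lower in KO, 4 on the 6 libraries, was 1 without a filter on low values, 36 with all 24 libraries at equal weights, 8 with weights by day, 2 without mice 480 and 481, and 1 to 7 when 1 mouse was left out. It was 1 without WT mouse 531 or KO mouse 532 and 7 without WT mouse 529. Genes higher in KO, 1 in the reported fit, numbered 3 with equal weights, 2 without mice 480 and 481 and 1 to 2 with 1 mouse left out. The mice pair libraries across days, and with the mouse as a replicate block 8 genes were lower and 1 higher. The day 0 difference less the later one, with 0 calls, gave 1 with a pseudocount of 0.1, 6 with weights by day, 7 with the replicate block and 0 to 2 with 1 mouse left out. The median of the 71 interferon-stimulated genes, -0.68, was -0.40 without mice 480 and 481. A filter at 5 FPKM, median scaling, no variance trend, neighbouring mouse numbers as a batch and, chosen after seeing the data, leaving out genes listed at 0 in some libraries kept the 5 calls. Over single genes 362 recomputed results kept their side of the threshold, 21 passed newly and 19 no longer did, and of list medians 697 stayed within the spread between mice and 16 did not. The cause of these changes was not tested, and each leave-one-out fit also had fewer samples. Unknown depth and 3 mice per genotype limit what low genes can show.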

Other observations

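Several genes outside all 41 lists were also low in the KO precursors. The choice was made after seeing their values, and none passed the adjustment in limma. H2-T9, a nonclassical MHC class I gene, measured 28.8, 27.2 and 26.9 FPKM in the WT mice and 16.5, 17.8 and 16.6 FPKM in the KO mice, a difference of -0.67 (limma adjusted p = 0.312). Mndal, a gene of the Ifi200 family on chromosome 1, measured 31.2, 24.5 and 27.2 FPKM in the WT mice and 13.5, 17.7 and 21.5 FPKM in the KO mice. Batf2, a transcription factor gene of activated macrophages, measured 4.23, 2.67 and 3.24 FPKM in the WT mice and 1.63, 1.91 and 2.48 FPKM in the KO mice. Sgk1, a stress-responsive kinase gene, measured 54.5, 38.1 and 38.4 FPKM in the WT mice and 28.8, 32.4 and 28.7 FPKM in the KO mice. In all 4 genes every KO mouse lay below every WT mouse. Of the 111 genes with no overlap and an unadjusted p under 0.05 in this direction, 44 were in no list, as were 8721 of all 9351 genes tested. The lists are not complete, so a gene in no list can still be one that interferon induces.

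Some tested genes had values of exactly 0 in single mice. Inpp5d, which encodes the phosphatase SHIP1, measured 67.5, 51.6 and 52.8 FPKM in WT and 63.3 FPKM in KO mouse 481, and was listed at 0 in KO mice 528 and 532. Cd36, a scavenger receptor gene, was listed at 0 in KO mouse 481 alone and measured 378 to 536 FPKM in the other 5 mice. Actr3, a subunit of the actin-branching complex, was listed at 0 in WT mouse 529 and KO mice 528 and 532. Such genes can be failed estimates, and no fold is given for them.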
